A study of Mus musculus with 278 samples.

Results

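The genes described here encode core and regulatory splicing factors, the proteins that recognise introns and assemble the spliceosome, measured in single mouse spermatogonia. Genes were taken by symbol: those beginning with Hnrnp, Snrp, Sf3a, Sf3b or U2af, and Srsf followed by a number. The imprinted gene Snrpn was left out. This gave 51 of the 23354 genes in the expression matrix, and each of the 51 has an entry in GENCODE M21 (GRCm38). Genes of these families that the matrix lists under older symbols (Hnrpdl, Hnrpll) fall outside the rule, as does the entry Sfrs18.

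Splicing removes introns from nuclear transcripts in a complex built from small nuclear ribonucleoproteins (snRNPs), each an RNA with a ring of Sm proteins and a few proteins of its own. U1 marks the 5′ splice site, U2AF reads the 3′ splice site, and U2 with its SF3a and SF3b subcomplexes binds the branch point. SR proteins mostly promote the use of nearby sites, while hnRNPs coat the transcript and often repress them, and the balance of both shapes alternative splicing, of which the testis shows an unusual amount.

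Each sample was 1 spermatogonium from untreated mice at postnatal day 6 that carry an Id4-EGFP reporter, in which EGFP follows the expression of Id4, an inhibitor of DNA binding used to mark spermatogonial stem cells. Testes of several pups were pooled, EGFP-positive cells were sorted and caught on a Fluidigm C1 chip, and polyadenylated RNA was turned into libraries with SMARTer and Nextera chemistry, after wells that held debris, dead cells or more than 1 cell had been dropped. By normalized EGFP brightness, 74 cells fall into the bright quartile Q1, 70 into Q2, 74 into Q3 and 60 into the dim quartile Q4. A passage of the labels' protocols numbers the dim quartile as Q2, and the numbering of the design text was used. All cells share the reporter genotype, the age and the sort for EGFP, and there was no group without EGFP. The sort and the chip, made for cells of 10 to 17 µm, set which spermatogonia could be seen. The run number in the sample titles was taken as the preparation, which the labels do not state outright. This gave 5 preparations of 26, 62, 37, 75 and 78 cells, and the labels do not say whether these were separate litters.

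Values are FPKM, that is, fragments per kilobase of transcript relative to all mapped fragments of the cell. A gene was counted as detected in a cell at FPKM of at least 1. Germ cell markers were broadly detected, 8 of 13 in at least 90% of cells, and their sum averaged 4120 FPKM in Q1 and 4029 FPKM in Q4. Of 7 Leydig markers 6 were detected in under 1% of cells, and the other, Star, in 19.8%. So were 2 of 6 peritubular myoid, 0 of 6 endothelial and 3 of 6 macrophage and blood markers in the matrix. The most often detected of these lists were Pdgfra (17.3%), Egfl7 (42.1%) and Cd68 (14.4%). Of 12 Sertoli markers only Amh was under 1%. The other 11 were detected in 1.08% (Cldn11) to 92.1% of cells (Ctsl, which germ cells also express). Among them, Rhox8 was in 23%, Clu in 10.1% and Sox9 in 7.55%. The Sertoli sum averaged 145 FPKM in Q1 and 127 FPKM in Q4, and its part in the results was not tested. Cells had 2569 to 7706 detected genes with a median of 6320, and an estimated median of 618000 mapped fragments. Q1 cells had 6293 ± 931 detected genes and Q4 cells 5732 ± 1305 (SD of 5 preparation means), with more in Q1 in 5 of 5 preparations. Preparation 3 stood apart with a mean of 4437 detected genes, where the means of the other 4 ran from 5875 to 7148.

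Splicing factor genes were abundant and broadly detected. Of the 51 genes, 41 (80.4%) were detected in at least 90% of cells, against 18.9% of all 10452 genes that passed the filter on low values (detected in at least 10% of cells), and 10 were detected in all 278 cells. The mean over cells reached 100 FPKM for 27 genes (52.9%), against 10.6% of all genes that passed. The median gene averaged 120 FPKM, against 13.8 FPKM for all genes that passed. A single cell had 31 to 50 of the 51 genes, with a median of 46, and they made up 1.05% to 2.36% of its summed FPKM, with a median of 1.61%.

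**Figure D1:**
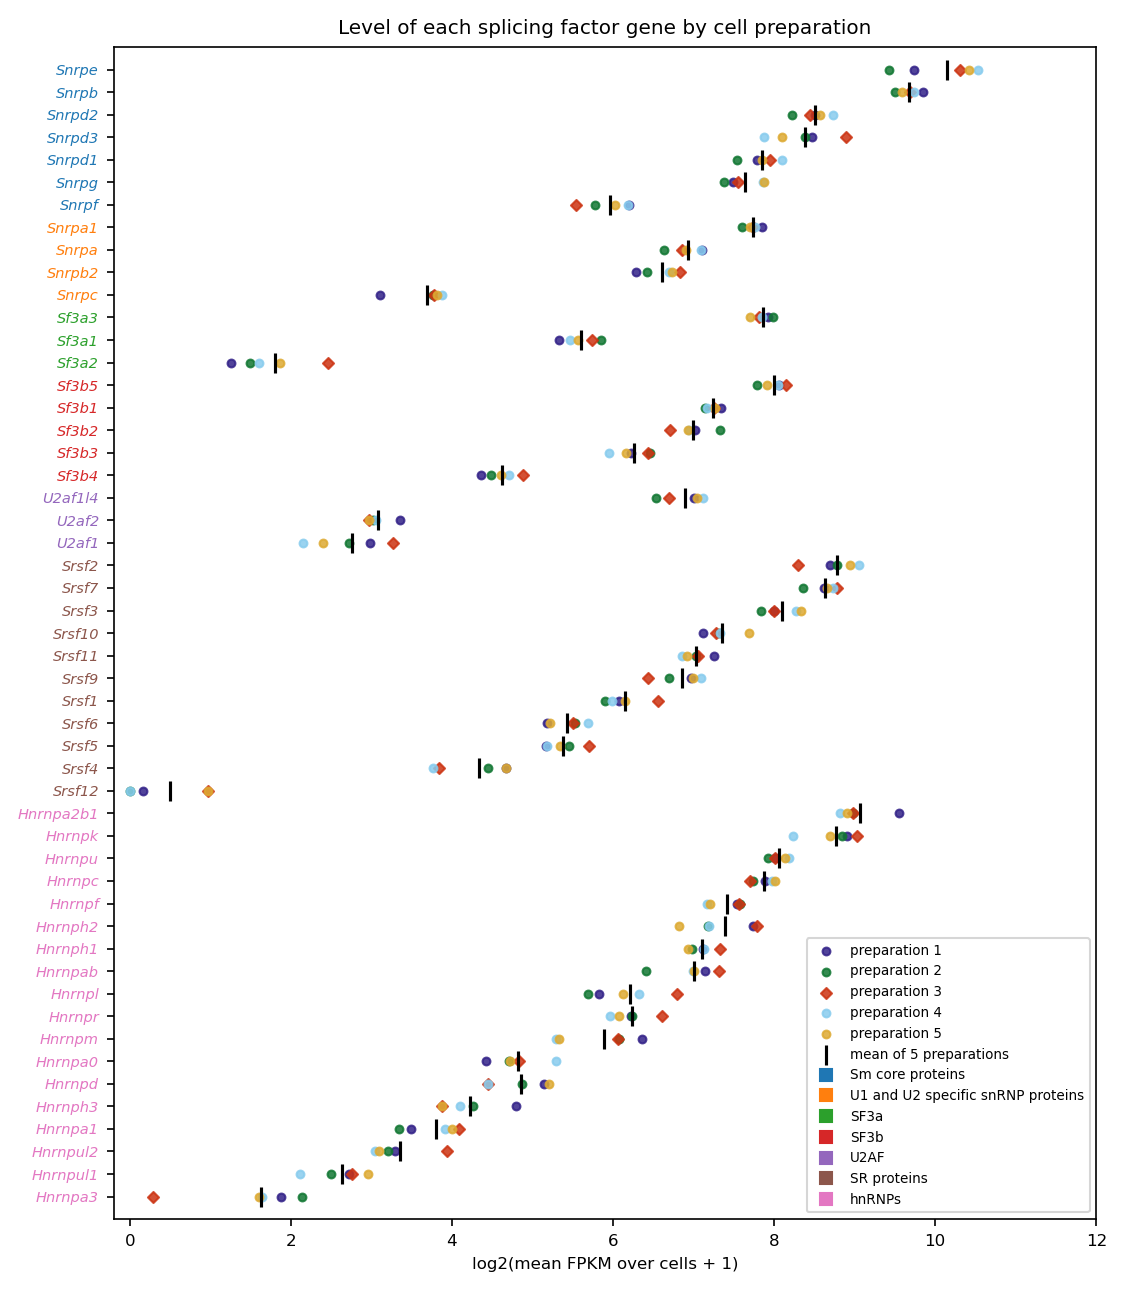
Level of each of the 51 splicing factor genes in each preparation. The horizontal axis is log2(mean FPKM over cells + 1); points are the 5 preparations, black ticks their mean, and gene names are coloured by role. The Sm core gene Snrpe lies at the top of the range, at 1131 FPKM, while Srsf12, at 0.409 FPKM, is the lowest gene.

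The 7 Sm core genes, whose proteins form the ring around each spliceosomal RNA, had the highest median of the classes, 310 FPKM (means over cells). They ran from 62.2 FPKM for Snrpf, below the median of the 51 genes, to 1184 FPKM for Snrpe, a 19-fold span although the proteins sit together in the ring. Of the 861 exonic bases of Snrpf, 735 overlap Ccdc38 and 4933408J17Rik on the opposite strand. These averaged 0.707 and 0.430 FPKM over cells, and the part of the overlap in the Snrpf level was not tested. Snrpe averaged 1131 ± 343 FPKM (SD of preparation means, n = 5). Its preparations 1 to 5 averaged 855, 686, 1267, 1479 and 1368 FPKM, so that preparations 1 and 2 were low and the other 3 did not overlap with them. Snrpb, which encodes SmB, averaged 818 ± 77.3 FPKM and ranged only from 723 to 923 FPKM between preparations. Each was detected in every cell, with a lowest cell of 279 FPKM for Snrpe and 166 FPKM for Snrpb.

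The U1 and U2 proteins were lower. Snrpa1 (U2-A′), which helps to hold U2 RNA, averaged 212 ± 13.3 FPKM, and Snrpa (U1-A) averaged 121 ± 16 FPKM. Snrpb2 (U2-B″), the partner of U2-A′, averaged 96.3 ± 15 FPKM, and Snrpc (U1-C), which stabilises pairing at the 5′ splice site, only 11.9 ± 2.43 FPKM. Both U2 proteins and U1-A were each detected in at least 97.1% of cells.

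Levels were uneven within the subcomplexes that bind the branch point. Among the SF3a genes, Sf3a3 averaged 231 ± 17.5 FPKM, Sf3a1 47.6 ± 7.02 FPKM and Sf3a2 2.48 ± 1.21 FPKM (SD, n = 5), a span of 94.2-fold in the means over cells. Sf3a2 was detected in 41.7% of cells, although the 3 proteins form 1 heterotrimer; its exons overlap those of Plekhj1 on the opposite strand, which averaged 46.4 FPKM over cells, and the part of this overlap in its level was not tested. The SF3b genes spanned 10.5-fold. Sf3b5, a small subunit, averaged 254 ± 24.5 FPKM and Sf3b1, the large scaffold that contacts the branch point, 150 ± 8.20 FPKM.

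U2AF showed the same kind of contrast. U2af2, the large subunit that binds the polypyrimidine tract, averaged 7.47 ± 1.03 FPKM, and U2af1, the small subunit that reads the AG of the 3′ splice site, 5.77 ± 2.06 FPKM. The U2af1 paralog U2af1l4 averaged 118 ± 19.7 FPKM and was detected in 93.9% of cells, against 80.2% for U2af2 and 66.9% for U2af1. The U2af1l4 gene (chromosome 7, 30563301 to 30565365, plus strand) shares exonic sequence with the gene model Gm49396 on its own strand, over 1086 bases, and with Psenen on the other strand. Psenen itself averaged 5.32 FPKM over cells, and its median correlation with U2af1l4 within preparations was -0.09. Without strand or transcript level data the share of U2af1l4 reads that belongs to its neighbours cannot be told apart.

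SR proteins covered the widest span, from Srsf12 to Srsf2. Srsf2 (SC35), an activator of many exons, averaged 438 ± 83.3 FPKM and Srsf7, which also acts in mRNA export, 397 ± 43.1 FPKM (SD, n = 5). Srsf3, the smallest of the family, followed at 274 ± 40.4 FPKM, and Srsf1 (ASF/SF2), a founding member, averaged 70.2 ± 13.8 FPKM. Srsf12, which can act as a splicing repressor in human cells, was detected in 8 of 278 cells (2.88%), was at 0 in 268, and is the only gene of the 51 that did not pass the filter. Its preparation means were 0.125, 0, 0.959, 0.00545 and 0.954 FPKM.

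Among 18 hnRNP genes, Hnrnpa2b1, a binder of purine-rich and m6A-marked RNA, and Hnrnpk, a poly(C) binder, led with 537 ± 120 FPKM and 434 ± 85.1 FPKM. Preparation 1 was high for Hnrnpa2b1 at 749 FPKM, while the other 4 lay between 452 and 504 FPKM. Hnrnpk had 478, 458, 523, 300 and 413 FPKM in preparations 1 to 5. Hnrnpa3, at 2.09 ± 1.18 FPKM, was the lowest of the class and was detected in 13.7% of cells.

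The preparation mattered most for Srsf4, Hnrnph3 and Hnrnpm. On the scale of the mean over cells of log2(FPKM + 1), their preparation means spanned 1.83 (Srsf4), 1.75 (Hnrnph3) and 1.47 (Hnrnpm). Hnrnph3, an hnRNP of the H/F family, had 26.7, 18.2, 13.7, 16.2 and 13.7 FPKM in preparations 1 to 5, with preparation 1 highest. On the log scale its means from Q1 to Q4 were 2.23, 1.91, 2.45 and 1.62 in preparation 3, against 3.34, 3.03, 2.27 and 2.08 in preparation 5. Hnrnpm, which binds GU-rich RNA, had 81.4, 66.6, 66, 38.2 and 39.1 FPKM, so that preparations 4 and 5 were low in FPKM. On the log scale its means from Q1 to Q4 were 4.67, 6.04, 4.68 and 2.93 in preparation 3. They were 4.58, 5.17, 3.58 and 4.52 in preparation 4, and 4.65, 5.03, 4.66 and 4.15 in preparation 5. The order in FPKM is therefore not the order on the log scale.

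Copies and overlaps limit some of these levels. At least 1 near-identical copy, with 90% identity or more over 50% or more of the coding sequence, was found for 24 of the 51 genes, and 97 of the 101 copies are annotated pseudogenes. Exons of 19 genes overlap another gene on the opposite strand and those of 6 on the same strand, and 12 genes had neither an overlap nor a copy. The clearest case was Hnrnpa1, a general repressor of exon inclusion and one of the most abundant hnRNPs in many cell types, which averaged only 12.9 ± 3.03 FPKM. It was detected in 127 cells (45.7%) and was listed at exactly 0 in none, with a median cell of 0.0601 FPKM. Its processed pseudogene Gm5643 (chromosome X, 142297565 to 142298530), 98.8% identical, averaged 287 FPKM over cells and was detected in 278 of 278 cells. The rank correlation of Hnrnpa1 with Gm5643 within preparations had a median of -0.29. Reads from this gene and its copy cannot be told apart at the level of these values, and the Hnrnpa1 level is uncertain. Hnrnpa3 has 34 such copies, of which Gm6793 is in the matrix, at 0.480 FPKM. Snrpc has 7 such copies, Snrpf 4, U2af2 3 and U2af1 2, none of them in the matrix. The part of these copies in the levels was not tested.

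Bright cells were then compared with dim cells, to ask whether splicing factor levels go with reporter brightness. No splicing factor gene passed the test between Q1 and Q4. Means over cells of log2(FPKM + 1) per preparation and quartile were compared with limma, with preparation as a block and Benjamini-Hochberg adjustment over all 10452 genes. Of the 50 genes tested, 0 passed an adjusted p of 0.05, against 0.0765% of all genes (8 genes, each of them higher in Q1). An unadjusted p under 0.05 was reached by 3 of 50 (6%), with Srsf4 and Hnrnpa2b1 higher in Q1 and Snrpd2 lower, against 11.4% of all genes (10.4% higher, 1.03% lower). The smallest adjusted p among the 50 was 0.142. Which of the shares was larger depended on the setting. With cells scaled to a common 75th percentile of their values above 0, 15 of 50 (30%) were at an unadjusted p under 0.05, all higher in Q1, against 16.9% of all genes (16.5% higher). The share of the splicing factor genes was also above that of all genes with a pseudocount of 10 (12% against 9.63%), with no filter on low values (11.8% against 9.18%) and with the log taken after averaging cells (12% against 8.26%).

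The median difference over the 50 genes was 0.11 on the log2(FPKM + 1) scale, against 0.17 for all genes tested, and 32 of 50 (64%) had a fitted difference above 0, against 69.5%. With the 75th percentile scaling the medians were 0.26 for the 50 genes and 0.26 for all genes. Without preparation 3 they were 0.03 and 0.14, and with detected genes as a term in the fit both were below 0, at -0.0655 and -0.0158. By role, the median was 0.22 for the 10 tested SR protein genes, 0.15 for hnRNPs, 0.23 for SF3a, 0.08 for U1 and U2 proteins, 0.06 for U2AF, 0.03 for SF3b and -0.07 for Sm core genes. These signs depend on the scale and on preparation 3: after scaling to the 75th percentile all 7 medians were above 0, with 0.16 for Sm core genes. With detected genes as a term in the fit, Sm core (-0.13), U1 and U2 (-0.26) and U2AF genes (-0.76) had medians below 0. Without preparation 3 the medians were 0.0170 for SF3a, -0.0949 for U1 and U2 proteins, -0.22 for U2AF, -0.12 for Sm core genes, 0.07 for hnRNPs, 0.17 for SR protein genes and 0.05 for SF3b. The 95% interval of the difference lay within -1 and 1 for 41 of 50 genes and within -0.5 and 0.5 for 11. On this scale the difference of a gene near the floor, such as Hnrnpa3, Sf3a2 or U2af1, is smaller than its fold change in FPKM, so these bounds are no bounds on fold changes for such genes.

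**Figure D2:**
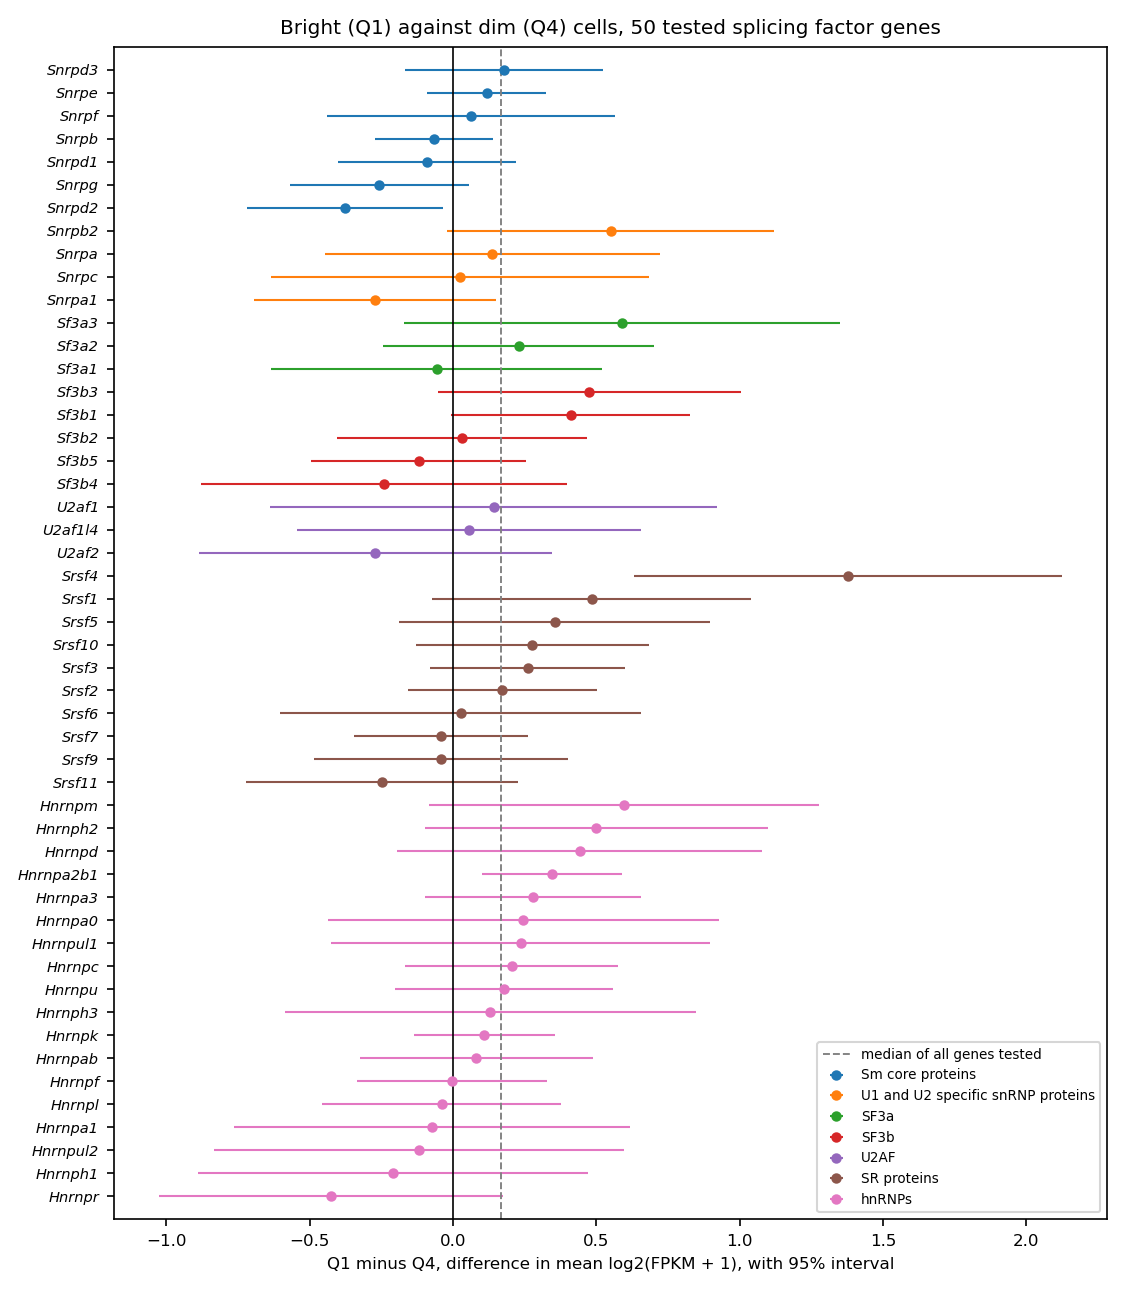
Difference of Q1 minus Q4 for the 50 tested genes, in mean log2(FPKM + 1), with 95% intervals from the limma fit; the dashed line is the median of all genes tested, at 0.17. Srsf4 lies farthest to the right, at 1.38, and Hnrnpr farthest to the left, at -0.43; 47 intervals include 0.

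Srsf4 had the largest difference. It encodes SRp75, a large SR protein, and lies on chromosome 4 (131873617 to 131901706, plus strand). Its mean level in preparations 1 to 5 was 18.8, 29.5, 18.4, 15 and 20 FPKM in Q1, against 42.4, 13.3, 0.0775, 8.26 and 15.8 FPKM in Q4. Q1 was higher in preparations 2 to 5 and lower in preparation 1, where Q4 held 4 cells, and the ranges of the quartiles overlapped. The share of cells with Srsf4 detected was 100, 81.3, 45.5, 70 and 63.2% in Q1, against 100, 73.3, 0, 33.3 and 31.6% in Q4. The fitted difference was 1.38 ± 0.36 (SE; 95% interval 0.63 to 2.12; limma adjusted p = 0.142), higher in 4 of 5 preparations. On the linear scale the means were much closer, 20.3 ± 5.44 FPKM in Q1 and 16 ± 15.9 FPKM in Q4 (SD, n = 5), while on average 72% of Q1 cells and 47.6% of Q4 cells had the gene detected. The exons overlap Gm12992 on the opposite strand, which was not analysed here. The number of detected genes moved in the same direction, as given above, and its part in this difference was not tested beyond the fit with that number as a term, in which Srsf4 had 0.72 and an adjusted p of 0.925.

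Hnrnpa2b1 (chromosome 6, 51460932 to 51469894, minus strand) showed a smaller but more even difference. Its preparations 1 to 5 averaged 793, 530, 582, 495 and 490 FPKM in Q1, against 780, 442, 399, 399 and 416 FPKM in Q4. Every Q1 mean was above the Q4 mean of its own preparation, and without preparation 1 the quartiles did not overlap. The difference was 0.35 ± 0.12 (SE; 95% interval 0.10 to 0.59; limma adjusted p = 0.249), in 5 of 5 preparations. The number of detected genes was also higher in Q1 in 5 of 5 preparations. With that number as a term in the fit, the difference was 0.21 (limma unadjusted p 0.284, adjusted p 0.948). Its part was not tested further. Without preparation as a block the unadjusted limma p was 0.0570.

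Snrpd2, which encodes the Sm protein D2, was the 1 gene lower in Q1 at an unadjusted p under 0.05. It lies on chromosome 7 (19149722 to 19153542, plus strand). Preparations 1 to 5 averaged 330, 247, 332, 445 and 290 FPKM in Q1, against 449, 346, 445, 496 and 405 FPKM in Q4. Q1 was lower in 5 of 5 preparations, although the ranges overlapped. The fitted difference was -0.38 ± 0.17 (SE; 95% interval -0.72 to -0.03; limma adjusted p = 0.384), and the gene was detected in 277 of 278 cells. The unadjusted limma p was 0.0323, and it was above 0.05 when preparation 1, 2 or 5 was left out (0.0630, 0.131 and 0.0887). The same held with a pseudocount of 0.1 (0.0564) and without preparation as a block (0.108). With the 75th percentile scaling the difference was -0.15 and the unadjusted p 0.40. Its ring partner Snrpg was also lower in Q1 in each preparation, with 191 ± 27.7 FPKM in Q1 and 228 ± 27.8 FPKM in Q4 (-0.26 ± 0.15, limma adjusted p = 0.542). The difference was 0.12 for Snrpe (95% interval -0.09 to 0.33; 0.0126 without preparation 3) and -0.07 for Snrpb (-0.27 to 0.14; 0.16 after scaling to the 75th percentile).

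**Figure D3:**
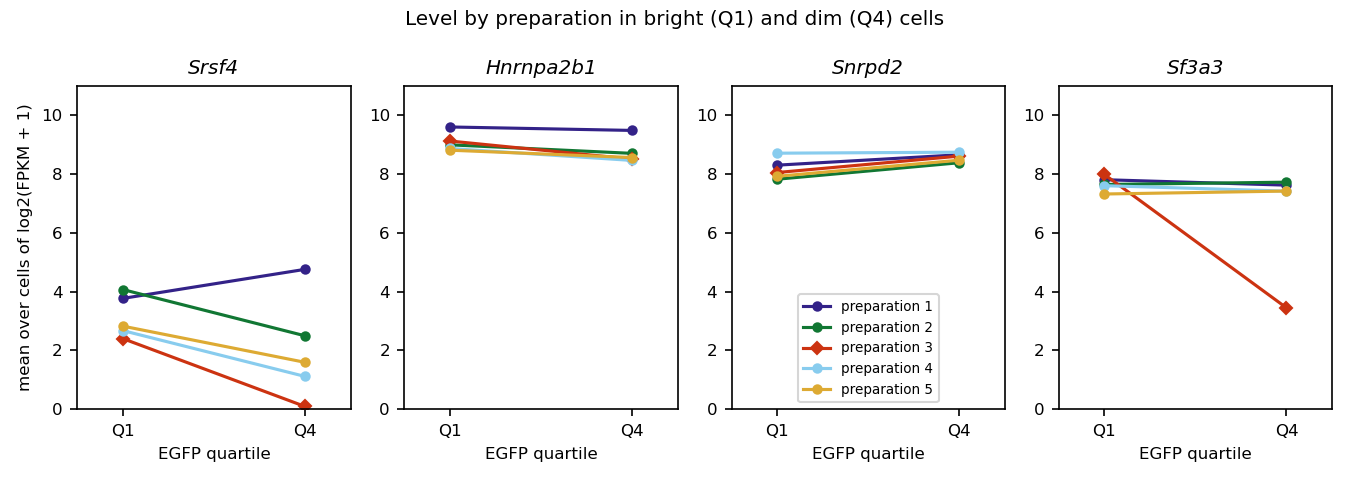
Mean over cells of log2(FPKM + 1) in Q1 (left) and Q4 (right) for Srsf4, Hnrnpa2b1, Snrpd2 and Sf3a3, with 1 line per preparation and preparation 3 as diamonds. Hnrnpa2b1 slopes down toward Q4 in 5 of 5 preparations and Snrpd2 slopes up in 5 of 5; for Sf3a3, preparation 3 differs by 4.54 and the other preparations by -0.10 to 0.19.

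The promoters of these 3 genes are shown because they were the ones at an unadjusted p under 0.05; each runs from 250 bases before to 50 bases after the annotated start, in the direction of the gene, from RefSeq on GRCm38.p6. Capitals mark matches on either strand to GGGCGG (GC box), CCGGAAG (ETS), CCAAT and TGACGT (CRE core); TATAAA was also searched and is in none of the 3.
Srsf4, chr4:131873387-131873686, plus strand: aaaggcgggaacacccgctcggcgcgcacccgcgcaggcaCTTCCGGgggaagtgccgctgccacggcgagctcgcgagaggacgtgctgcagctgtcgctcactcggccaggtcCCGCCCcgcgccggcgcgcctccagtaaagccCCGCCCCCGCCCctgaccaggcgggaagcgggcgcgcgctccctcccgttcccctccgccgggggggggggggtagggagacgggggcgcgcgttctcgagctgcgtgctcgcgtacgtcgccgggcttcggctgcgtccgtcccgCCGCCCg
Hnrnpa2b1, chr6:51469845-51470144, minus strand: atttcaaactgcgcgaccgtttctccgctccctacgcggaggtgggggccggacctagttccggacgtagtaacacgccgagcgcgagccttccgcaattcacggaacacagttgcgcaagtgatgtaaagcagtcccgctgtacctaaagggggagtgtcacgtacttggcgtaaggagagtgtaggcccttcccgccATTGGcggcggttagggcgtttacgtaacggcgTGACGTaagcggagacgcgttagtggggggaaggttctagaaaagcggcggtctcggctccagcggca
Snrpd2, chr7:19149588-19149887, plus strand: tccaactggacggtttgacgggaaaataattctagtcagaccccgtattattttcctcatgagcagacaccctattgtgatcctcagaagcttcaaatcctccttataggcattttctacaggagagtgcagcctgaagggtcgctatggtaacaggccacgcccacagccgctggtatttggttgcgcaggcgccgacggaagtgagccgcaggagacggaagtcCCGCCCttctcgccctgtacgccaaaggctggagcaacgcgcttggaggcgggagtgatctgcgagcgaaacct
The Srsf4 promoter has 77.7% G and C, with 4 GC boxes, of which 2 adjoin, and 1 ETS match. The Hnrnpa2b1 promoter has 60% G and C, with 1 CCAAT box and 1 CRE core, and the Snrpd2 promoter 55.3%, with 1 GC box.

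Promoters were found for 45 of the 51 genes, with a median of 60.3% G and C against 52.7% over 27025 promoters. GGGCGG was in 68.9% of them, against 35.9% of all promoters, and CCAAT in 48.9%, against 37.9%. CCGGAAG was in 33.3%, against 9.12%, and TGACGT in 26.7%, against 7.64%. TATAAA was in 13.3%, against 14.2%. The motifs do not contain each other. A match is a description of the letters in the window and not a binding site.

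The genes with the smallest p in each of the other classes had 95% intervals that include 0. In SF3a this was Sf3a3, where the difference came from preparation 3. Preparations 1 to 5 averaged 247, 237, 306, 228 and 187 FPKM in Q1, against 218, 233, 120, 192 and 246 FPKM in Q4. In preparation 3 only 42.9% of the 7 Q4 cells had Sf3a3 detected, against 94.7% or more in each other Q4 group. The gene was at 0 in 5 of the 278 cells, all of preparation 3 and 4 of them in its Q4; those 4 had 2569 to 3949 detected genes, and the other cells of that group 3429 to 5942. The fitted difference was 0.59 ± 0.37 (SE; limma adjusted p = 0.572) with all preparations and 0.0170 ± 0.16 (adjusted p = 0.984) without preparation 3.

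Snrpb2 differed by 0.55 ± 0.28 (limma adjusted p = 0.454), with preparations 1 and 5 on the other side of 0. On the linear scale its preparations 1 to 5 averaged 82.4, 89.9, 95.6, 96.2 and 101 FPKM in Q1, against 96.5, 71.5, 130, 62.9 and 123 FPKM in Q4. In FPKM, preparation 3 was thus also lower in Q1, while 90.9% of its Q1 cells and 71.4% of its Q4 cells had the gene detected. Sf3b1 had 156 ± 16.7 FPKM in Q1 and 134 ± 15.5 FPKM in Q4 (SD, n = 5), with a difference of 0.41 ± 0.20 (95% interval -0.01 to 0.83; limma adjusted p = 0.442), above 0 in 4 of 5 preparations. U2af2 had 7.87 ± 2.11 FPKM in Q1 and 10.8 ± 3.29 FPKM in Q4, with -0.27 ± 0.30 (adjusted p = 0.780). The abundant genes Srsf2, Srsf7 and Hnrnpk had 0.17 (95% interval -0.16 to 0.50), -0.04 (-0.35 to 0.26) and 0.11 (-0.14 to 0.36).

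The differences of Sf3a1 and Sf3b5 were -0.06 ± 0.28 and -0.12 ± 0.18, and those of Snrpa1 and Snrpa -0.27 ± 0.20 and 0.14 ± 0.28. U2af1l4 had 0.06 ± 0.29 and Hnrnph3 0.13 ± 0.35 (SE). None of these 6 passed the test, and their intervals reached from -0.69 to 0.85 at the extremes. Q1 was higher in 5 of 5 preparations for Hnrnpa2b1, Hnrnpc and Hnrnpm, and in 0 of 5 for Snrpd2, Snrpg and Hnrnpr, that is 3 of 50 genes each way, against 8.42% and 1.78% of all genes tested.

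Over all quartiles, a trend per quartile step toward Q1 likewise called 0 of 50 genes in limma, against 0.134% of all genes (14 genes). At an unadjusted p under 0.05 there were 5 of 50 (10%), against 12.2% of all genes. Srsf4, Hnrnpa2b1, Srsf1 and Hnrnpm had a positive slope (4 of 50, against 11% of all genes) and Snrpd2 a negative one (1 of 50, against 1.24%). Snrpd2 averaged 428 ± 56.1 FPKM in Q4, 375 ± 52.9 in Q3, 332 ± 43.6 in Q2 and 329 ± 73.4 in Q1 (SD, n = 5), with a slope of -0.12 ± 0.05 per step (limma adjusted p = 0.376). Hnrnpa2b1 averaged 487 ± 165, 540 ± 146, 540 ± 81.4 and 578 ± 126 FPKM from Q4 to Q1, with a slope of 0.11 ± 0.04 (limma adjusted p = 0.240).

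The FPKM means of Srsf1 and Hnrnpm did not rise at each step toward Q1, and a departure from a straight line was not tested. Srsf1 averaged 55.3 ± 9.69 FPKM in Q4, 58.3 ± 11.3 in Q3, 91.3 ± 33.6 in Q2 and 76.3 ± 21.6 in Q1, with its highest mean in Q2 (slope 0.20 ± 0.08, limma adjusted p = 0.348). Hnrnpm averaged 55 ± 18.6, 53 ± 26.5, 65.5 ± 24.3 and 60.7 ± 22.7 FPKM from Q4 to Q1 (slope 0.25 ± 0.10, limma adjusted p = 0.330). For Srsf4 the slope was 0.41 ± 0.11 (limma adjusted p = 0.144), and the largest step was Q3 minus Q4, at 1.03 ± 0.36, against 0.01 ± 0.35 for Q2 minus Q3 and 0.33 ± 0.35 for Q1 minus Q2.

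Neighbouring quartiles gave no call in limma, among the 50 genes or among all genes tested (0.0% in each of the 3 steps). At an unadjusted p under 0.05, Q1 minus Q2 had 2 of 50 (4%), Srsf11 and Hnrnpr, both lower in Q1, against 4.08% of all genes (1.84% lower). Q2 minus Q3 had 2 (4%), Srsf1 and Hnrnpm, both higher in Q2, against 4.68% (2.75% higher). Q3 minus Q4 had 2 (4%), Srsf4 and Snrpb2, both higher in Q3, against 7.4% (6.64% higher). Hnrnpr, an hnRNP also involved in RNA transport, averaged 88.5 ± 35.2 FPKM in Q4, 69.6 ± 12.9 in Q3, 88.7 ± 11.6 in Q2 and 56.8 ± 16.1 in Q1.

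The breadth of detection was compared next, since a cell with few detected genes may also lack some splicing factors. Cells had 45.8 ± 1.04 of the 51 genes in Q1 and 44.3 ± 3.49 in Q4 (SD, n = 5), which is 89.8% and 86.9%. The number was higher in Q1 in 3 of 5 preparations, with differences from -1.0 to 5.56. The same shares over all genes tested were 58.3% in Q1 and 53.3% in Q4. In preparation 3 Q4 cells had 38.7 of the genes on average, against 44.3 in its Q1 cells. The share of summed FPKM taken by splicing factor genes was 1.64 ± 0.0857% in Q1 and 1.61 ± 0.0963% in Q4.

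**Figure D4:**
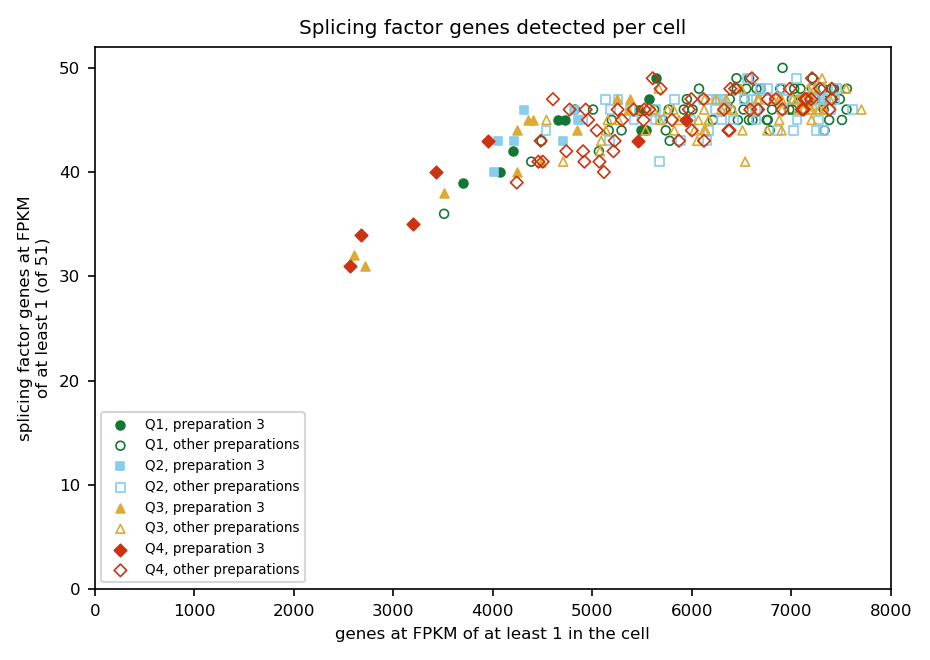
Number of the 51 splicing factor genes detected in each of the 278 cells, against the number of all genes detected in the same cell; colours and shapes are EGFP quartiles and filled symbols are preparation 3. Counts lie near 46 for most cells and are lowest, at 31, among the cells with the fewest detected genes, several of which are Q4 cells of preparation 3.

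Variation between single cells was moderate for abundant members. The coefficient of variation within preparations had a median of 0.51 (0.35 to 0.75) over the 27 genes that averaged at least 100 FPKM, against 0.58 over the 1036 such genes detected in at least 90% of cells. Hnrnpc, which binds uridine tracts and masks cryptic exons, was at the low end with 0.351, and Hnrnph1, a binder of G-rich runs, at the high end with 0.754. Cells of a preparation were taken to share a chip and a suspension, and technical and biological variation cannot be told apart here.

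Splicing factors did not vary together as 1 group. Over the 820 pairs of the 41 broadly detected genes, Spearman's rho across the cells of a preparation (26 to 78 cells), taken as the median over 5 preparations, had a median of 0.02 and ran from -0.33 to 0.42. Over all 1973 broadly detected genes the median was 0.01, with a 5th to 95th percentile range of -0.15 to 0.16. A percentile range leaves out the extremes, so its width cannot be set against the lowest and highest values of the 820 pairs. The correlation with the number of detected genes had a median of 0.04 for splicing factor genes and 0.06 for all. These values describe cells that share a run number, read as the preparation, and a range of depth, and carry no test.

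The pairs given here are among those with the largest median rho of the 820, chosen by the same 5 values, so that a shared sign over preparations follows in part from that choice. Of all 820 pairs, 128 (15.6%) had 1 sign in every preparation. The same share over pairs of all broadly detected genes was not computed, so a shared sign cannot be called particular to splicing factors. Snrpe and Srsf3 had a median rho of 0.42, from 0.29 to 0.49 over the 5 preparations, and Snrpe went the same way as Hnrnpk (0.29; 0.16 to 0.50) and Hnrnpu, a scaffold-binding hnRNP (0.29; 0.10 to 0.47). Snrpd2 went with Snrpg (0.29; 0.18 to 0.37) and against Hnrnpk (-0.33; -0.52 to -0.13), Srsf3 (-0.29; -0.41 to -0.15) and Snrpe (-0.27; -0.38 to -0.10). Snrpf also went against Srsf3 (-0.27; -0.35 to -0.13). Snrpe and Snrpd2, whose proteins share the Sm ring, had a negative rho in 5 of 5 preparations. Other pairs were less even, such as Sf3b4 and Snrpa (0.40; -0.02 to 0.45) and Srsf10 and Srsf3 (0.38; -0.09 to 0.41).

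**Figure D5:**
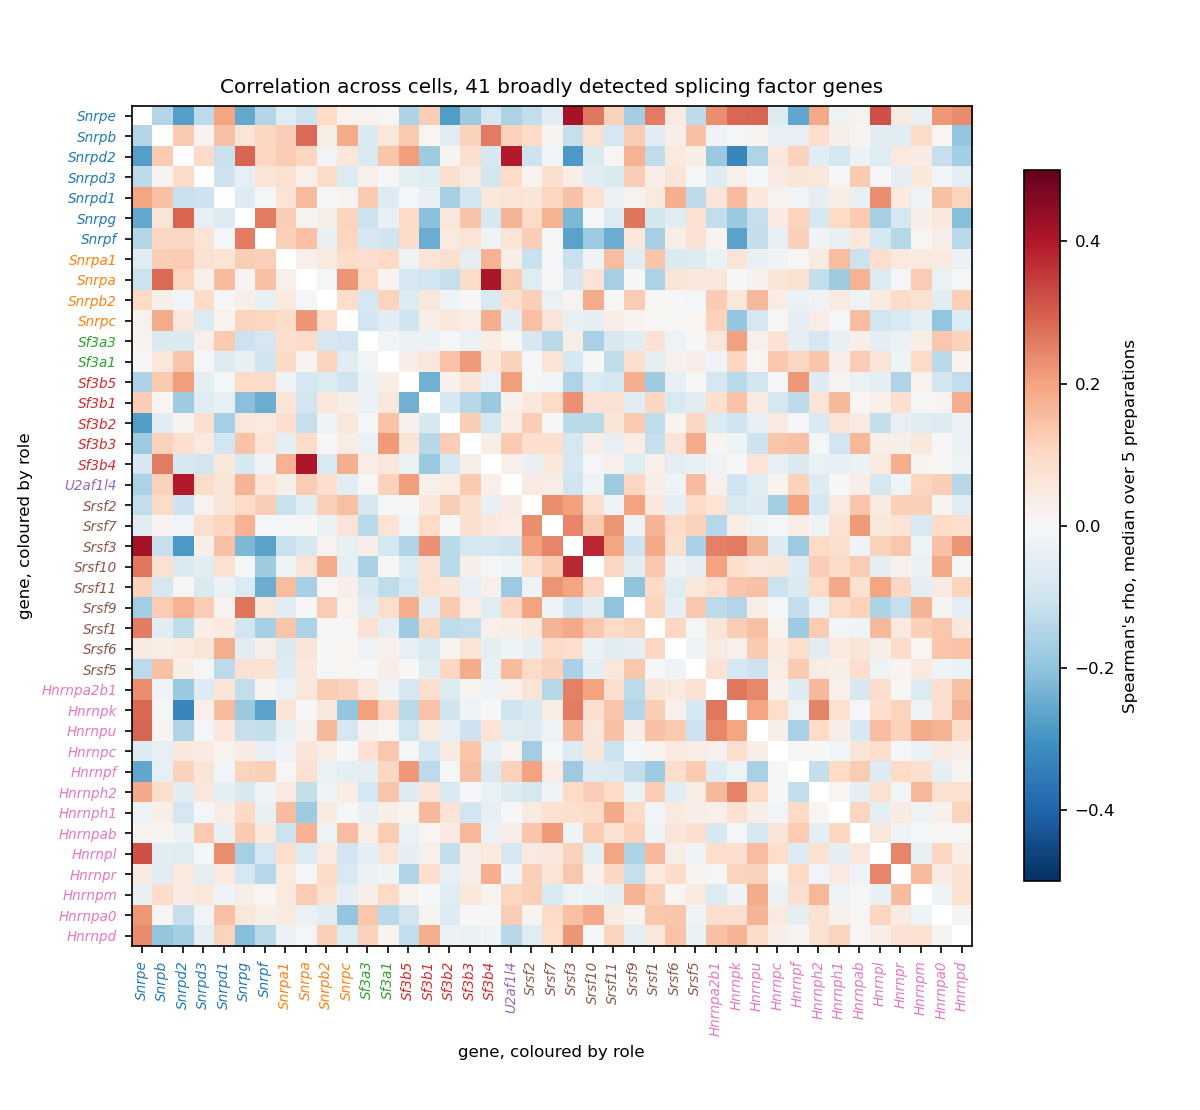
Spearman's rho between each pair of the 41 splicing factor genes detected in at least 90% of cells, computed across cells within each preparation and shown as the median of 5 preparations; names are coloured by role. Most squares are pale, between -0.33 and 0.42, with the darkest red at Snrpe with Srsf3 and the darkest blue at Hnrnpk with Snrpd2.

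The rest of the splicing machinery was compared in the same fit, through 11 lists of 169 genes chosen by role, of which 166 are in the matrix and 160 were tested. In Q1 against Q4, 0 of 160 passed the limma test. At an unadjusted p under 0.05, 16 of 160 (10%) were higher and 1 (0.625%) was lower, against 10.4% and 1.03% of all genes, and the median difference was 0.13, against 0.17. The counts of single lists below are small and are given as a description. The SMN complex and snRNP assembly list, the factors that load Sm proteins onto RNA, held 5 of the higher genes among its 16 (31.3%, against 10.4% of all genes), with a median of 0.28. Ddx20 (Gemin3), a helicase of the complex, averaged 54.5 ± 20.1 FPKM in Q1 and 42.9 ± 17.6 FPKM in Q4 (1.30 ± 0.35, limma adjusted p = 0.159).

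The U1 and U2 associated proteins outside the rule (median 0.23, 21 genes) had 3 higher, led by Luc7l3, a U1 partner, with 79.7 ± 21.1 FPKM in Q1 and 62.1 ± 12.4 FPKM in Q4 (0.92 ± 0.26, limma adjusted p = 0.163). The Prp19 complex list (median 0.31, 18 genes) also had 3 higher, led by Pqbp1 at 0.94 ± 0.32 (limma adjusted p = 0.245). Pqbp1 averaged 76.7 ± 16.3 FPKM in Q1 and 61.8 ± 7.54 FPKM in Q4. The minor spliceosome list (median 0.33, 9 genes) had 2, led by Snrnp25 at 0.94 ± 0.36 (limma adjusted p = 0.309). On the linear scale Snrnp25 was close, with 172 ± 44.9 FPKM in Q1 and 163 ± 54.4 FPKM in Q4. Here, as for Ddx20 and Luc7l3, the difference is one of mean logs over cells and no fold change of the mean FPKM. The list of SR protein kinases and their partners (median 0.00, 9 genes) had the 1 lower gene, Srpk2, a kinase that phosphorylates SR proteins, at -0.58 ± 0.28 (adjusted p = 0.425).

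The other splicing regulators (median 0.14, 35 genes) had 3 higher, and among them Ptbp3, a repressor of the polypyrimidine tract binding family, was the single gene of the 160 that passed in the trend (0.625%, against 0.134% of all genes). It averaged 64.1 ± 11.5 FPKM in Q1 and 31.2 ± 10.4 FPKM in Q4 (SD, n = 5), higher in 5 of 5 preparations, with a slope of 0.43 per step (limma adjusted p = 0.0480); for Q1 minus Q4 the adjusted p was 0.0958, and 0.0292 with the 75th percentile scaling. The call in the trend held in 2 of 14 alternatives (the 75th percentile scaling and the filter at 25% of cells) and was lost in the other 12, each omission of 1 preparation included (adjusted p 0.0615 to 0.347); the slope stayed above 0 in all 14 (0.28 to 0.54, adjusted p 0.0141 to 0.873). The remaining lists had no gene at an unadjusted p under 0.05. They were U5 and U4/U6 proteins (16 genes, median 0.14, smallest p for Sart3), LSm proteins (9 genes, 0.04, Lsm1), helicases (10 genes, 0.13, Ddx39b), SR-related proteins and importers (12 genes, 0.13, Tnpo3) and the exon junction complex (5 genes, 0.12, Casc3). Differences for these 5 were 0.67 ± 0.36 for Sart3, -0.56 ± 0.29 for Lsm1, 0.34 ± 0.24 for Ddx39b, 0.59 ± 0.33 for Tnpo3 and 0.47 ± 0.37 for Casc3 (SE).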

How the data were processed

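Single-cell RNA was measured in 278 cells. The matrix deposited by the authors holds 1 value per gene and cell, read here as FPKM from the quantifier in the submitters' processing notes and from the values, since the header names no unit. The submitters' processing notes name TopHat, Cufflinks, Picard, FastQC and the mouse genome mm10 (GRCm38); versions, settings, strand handling and depth: not given in the sources used here. A count model was not applied, as FPKM are no counts. Cufflinks can divide reads between copies or overlapping genes. Depth was estimated from the spacing of low FPKM values, over 2114 genes whose only annotated transcript has 1500 bases or more. It ran from 210000 to 1842000 fragments per cell, and estimates from separate sets of these genes agreed within 1.25-fold in 244 of 278 cells. A value of 0 may be a molecule that was missed or an estimate that failed. All columns were used, and 6247 genes are at 0 in every cell. No pair of cells was a duplicate (highest correlation 0.808).

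The run number in the sample titles was taken as the preparation (n = 5), the unit of replication. The labels do not state outright that a run is a preparation, and the block and each SD rest on this reading. With preparation as a block, p-values measure how far quartile differences vary between preparations, together with the sampling of cells. The filter on low values kept the 10452 genes with FPKM of at least 1 in 10% of cells or more. Means over cells of log2(FPKM + 1) for the 20 combinations of preparation and quartile (4 to 20 cells each) were fitted with limma 3.58.1 (R 4.3.3 with the package data.table, release 1.17.8; trend = TRUE), weighted by cells, with preparation as a block and 12 residual degrees of freedom (23.9 in the moderated test). Tests were two-sided, with Benjamini-Hochberg adjustment over all 10452 genes. The pseudocount of 1 understates changes of low genes. Numbers pair the means: deviations of means from the same preparation correlated at a median of 0.19 and a lowest of 0.0758 over 30 pairs, against -0.0672 between preparations. The script was tested on simulated data. Copies were found with blastn 2.17.0 against GENCODE M21 transcripts. Python 3.11.15 with numpy 2.4.6, pandas 2.3.3, scipy 1.17.1 and matplotlib 3.10.9 was used for the rest.

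The genes and all lists were chosen with earlier results of these data known. Named genes are, per role, the 2 of highest mean FPKM and the one of smallest p between Q1 and Q4, those at an unadjusted p under 0.05 in that comparison or the trend, the 3 with the largest range of preparation means, and those that failed the filter. From the other lists they are genes past the test, or else the one of smallest p. Other genes were named after their values were seen, to complete a class, a count or a pair. Marker lists were summed per cell and averaged per preparation. Sertoli markers gave 145 FPKM in Q1 and 127 in Q4, with Ctsl, which germ cells also express, in 92.1% of cells. Leydig markers gave 1.19 FPKM in Q1 and 1.21 in Q4, peritubular myoid markers 6.10 in Q1 and 0.848 in Q4, endothelial markers 28.2 in Q1 and 34.3 in Q4, and macrophage and blood markers 7.85 in Q1 and 6.14 in Q4. Genes associated with bright Id4-EGFP cells gave 185 FPKM in Q1 and 102 in Q4, and progenitor and differentiating genes 367 in Q1 and 514 in Q4. The part of these lists in the differences was not tested.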

Additional observations from a re-analysis of the deposited data

Results flagged for a closer look

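Values of 5 preparations were examined for 1 preparation far from the other 4, with a gap to the nearest value above 0.71 of the whole range. This met 11 of 84 groups, where chance gives about 1 in 20 for independent, normally distributed values. The groups are overlapping measures of the same genes, so the count cannot be set against that rate. In the flagged Srsf12 groups the other 4 values were exactly 0, so that the gap was the whole range. Preparation 1 was high for Hnrnpa2b1, with a Q4 mean of 780 FPKM (others 399 to 442) and an overall mean of 749 FPKM (others 452 to 504), and for U2af2, at 9.27 FPKM (others 6.81 to 7.36). It was low in the Q1 minus Q4 difference of Snrpb, at -0.43 (others -0.08 to 0.00).

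Preparation 3, with the fewest detected genes, stood apart in the Q1 minus Q4 difference of Sf3a3, at 4.54 (others -0.10 to 0.19), of Snrpa, at 2.20 (others -0.49 to 0.24), and of Snrpe, at 0.81 (others -0.04 to 0.07). Its Q4 mean of Sf3b5 was 381 FPKM (others 226 to 266). The part of detected genes in these values was not tested. Srsf12 was above 0 in Q1 and in Q4 only in preparation 5, with 0.0286 FPKM in Q1 and 1.09 FPKM in Q4, a difference of -0.33 where the other preparations had 0 in both quartiles.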

How the results depend on the processing

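No splicing factor gene was called between Q1 and Q4, in the trend or between neighbouring quartiles under any alternative run, and the smallest adjusted p between Q1 and Q4 was 0.0581 (Srsf4, with cells brought to the same 75th percentile). The number of genes at an unadjusted p under 0.05 between Q1 and Q4, 3 as reported, was 6 with a pseudocount of 10, with no filter on low values or with the log taken after averaging cells (9.63%, 9.18% and 8.26% of all genes, where 11.4% met it as reported). It was 5 with unweighted means (10.6% of all genes) and 3 to 4 when 1 preparation was left out (8.84% to 11.5% of all genes). With detected genes as a covariate and the replicate block it was 2 (5.39% of all genes), Hnrnpr and Snrpd2, both lower in Q1. With the 75th percentile scaling it was 15, or 30% against 16.9% of all genes, all higher in Q1, in place of 2 higher and 1 lower, and the median over all genes was 0.26, against 0.17 as reported. Preparations pair the means, and without the preparation as a replicate block the number was 1 (5.66% of all genes). The median over the 50 genes, 0.11, was -0.0655 with detected genes as a covariate and the replicate block, and 0.03 to 0.14 when 1 preparation was left out. Over the alternatives Srsf4 ran from 0.54 to 2.28 (adjusted p 0.0581 to 0.925), Hnrnpa2b1 from 0.21 to 0.57 (0.0607 to 0.948) and Snrpd2 from -0.63 to -0.15 (0.351 to 0.945), and none of these 3 changed sign. Of 300 recomputed differences of 20 named genes, 20 changed sign, in 8 genes, none of which was called. With the 75th percentile scaling these were Sf3a1 at 0.12, Sf3b5 at 0.12, Snrpb at 0.16 and Srsf7 at 0.18. With the log taken after averaging they were Snrpa at -0.0793, Srsf7 at 0.0124 and U2af1l4 at -0.0614, and with unweighted means Hnrnph3 at -0.0797. With detected genes as a covariate they were Hnrnph3 at -0.23, Snrpa at -0.20, Snrpe at -0.0123 and U2af1l4 at -0.76. Leaving out 1 preparation gave Sf3a1 -0.33 to 0.21, Srsf7 -0.11 to 0.0201, Sf3b5 -0.26 to 0.0484, Snrpa -0.16 to 0.36, U2af1l4 -0.22 to 0.21 and Hnrnph3 -0.34 to 0.35. The causes were not tested. The alternatives for the trend of Ptbp3 were added after its value was seen. Depth, the 4 to 20 cells behind a mean and 5 preparations limit the precision: the half-width of the 95% interval had a median of 0.49 and ran from 0.20 to 0.78.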
